A study of Homo sapiens with 8 samples.

Results

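The genes described here are 45 regulators and effectors of the cell division cycle, taken from a deposited expression table of 24598 genes by gene symbol. They were chosen by function, with earlier results of these data known. Of the 45, 26 act in G1 or S phase and 19 in G2 or mitosis, and all 45 were found in the table and passed the filter on low values. RNA was sequenced from CCD-1077Sk, a line of human skin fibroblasts labelled as normal skin. The cells, at a passage above 8, were grown to 70% confluency in high-glucose medium with 10% serum and collected 6 h after treatment. The 8 libraries form 4 groups of 2. One group received transforming growth factor beta 1 (TGFB1) together with celastrol at 500 nM, and one received TGFB1 with DMSO. One received celastrol at 500 nM with the carrier of TGFB1, BSA and citric acid, and the control received that carrier with DMSO. No dose of TGFB1 is stated in the labels. Celastrol is a plant triterpenoid known as an inducer of the heat shock response, and TGFB1 is a cytokine under which fibroblasts make matrix. The study asked how celastrol alters expression driven by TGFB1. All cells were of 1 line, in serum. Replicates are separate libraries, and whether they are also separate cultures is not stated, so the spread behind each p-value may be technical only.

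Entry into the cell cycle is set in G1 by D-type cyclins, which bind CDK4 and CDK6 and phosphorylate the retinoblastoma protein. Its phosphorylation frees E2F transcription factors, which switch on cyclin E and the genes that license and copy DNA. A later wave of genes, bound by the MuvB complex with B-MYB and FOXM1, supplies the cyclins, kinases and motors of mitosis. In many epithelial cells TGFB1 halts this program in G1 by lowering MYC and raising CDK inhibitors, whereas fibroblasts can divide in its presence.

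Values are normalized reads, that is, estimated reads divided by 1 size factor per library. Libraries held 20716625 to 42522255 estimated reads, and 3 reads, the floor set here for a count of 0, were worth 1.80 to 4.24 normalized reads. This floor covers counting error only. The lowest value of any member in any library was 16.2, above the floor. CCN2, a standard target of TGFB1, was higher in TGFB1 libraries than in controls (log2 fold change 2.76, SE 0.10, adjusted p = 9.39e-07), and HSPA1A, an inducible chaperone, was higher in celastrol libraries than in controls (6.36, SE 0.11, adjusted p = 1.69e-08). All 10 fibroblast markers were in the table, at summed levels of 406291 and 469852 with both agents, 595717 and 719203 with TGFB1, 424860 and 504208 with celastrol, against 501444 and 527171 in controls. Endothelial markers moved with celastrol: 4 of 5 were in the table, and they summed to 465 and 361 with both agents, 98.9 and 52.7 with TGFB1, 370 and 354 with celastrol, against 92.6 and 52.8 in controls, with PECAM1 at 0 in both TGFB1 libraries and 1 control. Melanocyte markers, with 3 of 5 in the table, summed to 1312 and 1270.0 with both agents, 236 and 222 with TGFB1, 1313 and 1365 with celastrol, against 1034 and 1074 in controls, and MLANA was at 0 in 1 TGFB1 library and both controls. Immune markers, also 3 of 5 in the table, summed to 354 and 488 with both agents, 311 and 304 with TGFB1, 368 and 464 with celastrol, against 240 and 363 in controls, with ITGAM at 0 in all 4 libraries without celastrol. Most of the melanocyte sum was MITF, at 1190 and 1174 with both agents, 222 and 211 with TGFB1, and 1026 and 1063 in controls. PMEL ran from 8.76 to 20.6 over all libraries. VWF was the largest endothelial marker in the libraries with celastrol, at 201 to 276, and KDR ran from 0 to 15.4 over all libraries. CD68 made up most of the immune sum, at 234 to 433. For keratinocytes 2 of 5 markers were in the table, at summed levels of 880 to 1065 over all libraries. Their part in the results below was not tested.

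Celastrol replicate 2 stood apart from the other libraries in its mitotic genes. All 19 G2/M members were lower in it than in celastrol replicate 1, with a median difference of -0.59 on the log2 scale, against -0.15 with both agents, -0.23 with TGFB1 and -0.02 in controls between replicates 2 and 1. It held the lowest of the 8 values for 16 of the 19 G2/M members and for 13 of the 26 G1/S members. The geometric mean of the G2/M members was 2584 and 2358 normalized reads with both agents, 2289 and 1966 with TGFB1, 2461 and 1627 with celastrol, against 2421 and 2403 in controls. The geometric mean of the G1/S members differed less, at 1308 and 1211 with both agents, 1303 and 1198 with TGFB1, 1285 and 1089 with celastrol, against 1310.5 and 1121 in controls. The labels of this library give different replicate numbers, 2 in its title and 3 elsewhere. Calls that ended without this library are given below with their value without it.

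**Figure D1:**
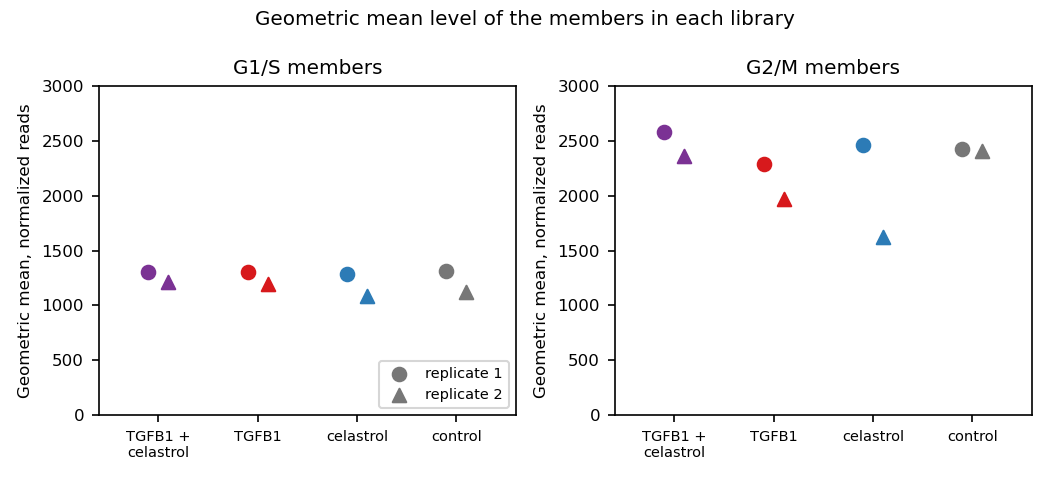
Geometric mean level of the 26 G1/S members (left) and the 19 G2/M members (right) in each library, in normalized reads on a linear axis, by group, with circles for replicate 1 and triangles for replicate 2. The G2/M mean of celastrol replicate 2, 1627, is the lowest of the 8, and its partner stands at 2461.

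Of the 45 members, 22 were called in at least 1 comparison at an adjusted p under 0.05 in limma, 17 of them G1/S and 5 G2/M genes. With both agents compared with TGFB1, 8 members were higher and 7 lower, where 63.4% of all 22866 genes tested were called, 37.5% higher and 25.9% lower. With celastrol compared with control, 4 were higher and 12 lower, where 55.1% of all genes were called, 33.8% higher and 21.3% lower. With TGFB1 compared with control, 4 were higher and 1 lower, where 23.5% of all genes were called, 12.8% higher and 10.6% lower. In the 3 comparisons 30, 29 and 40 of the 45 members were not called. Their median log2 fold change was 0.12 with both agents against TGFB1, the same as the 0.12 of all genes tested, and it turned to -0.17 with median centring. All 45 members had a mean of at least 50 normalized reads, and over the 14739 genes at that level the median was -0.10, with 27.4% called higher and 35.8% lower. It was -0.22 for celastrol against control, where the median was 0.08 for all genes and -0.06 for those with a mean of at least 50 (25.3% called higher and 28.3% lower), and -0.12 for TGFB1 against control, where these medians were 0.00 and 0.03 (18.3% called higher and 12.5% lower at that level). These counts depend on how the libraries are scaled. Scaling to a common total shifted the median of all genes by 0.155 with both agents against TGFB1 and by -0.21 for TGFB1 against control, and gave 15 higher and 5 lower members in the first and 4 higher and 11 lower in the second. Centring each library on its median shifted all genes by -0.29, -0.17 and 0.12 in the 3 comparisons, and gave 2 higher and 14 lower, 4 higher and 23 lower, and 5 higher and 1 lower members. For celastrol against control a common total gave 4 higher and 15 lower. Of all 22866 genes, a common total called 9809 higher and 4183 lower with both agents against TGFB1. It called 7286 higher and 6068 lower with celastrol against control, and 1417 and 5399 with TGFB1 against control. In the same order, median centring called 6956 higher and 9094 lower, 6751 and 7470, and 4778 and 1775. The fit draws each gene's variance toward a trend with its level, and without that variance trend 13 of the 39 calls made on members ended. A fit on the 4 compared libraries alone kept 31 and ended 5, and was not run for the 3 calls of the interaction described below. Single libraries also moved the counts of members. Here and below, no count of all genes called is set beside the runs with 1 library left out. A change particular to the members is therefore not shown by them. For celastrol against control 4 members were lower without celastrol replicate 2, 28 without celastrol replicate 1 and 5 without control replicate 1. For both agents against TGFB1 the members higher numbered 2 without TGFB1 replicate 2, 3 without either library of both agents and 12 without either celastrol library. In bulk RNA, fewer cells in a phase and less RNA of these genes per cell cannot be told apart.

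**Figure D2:**
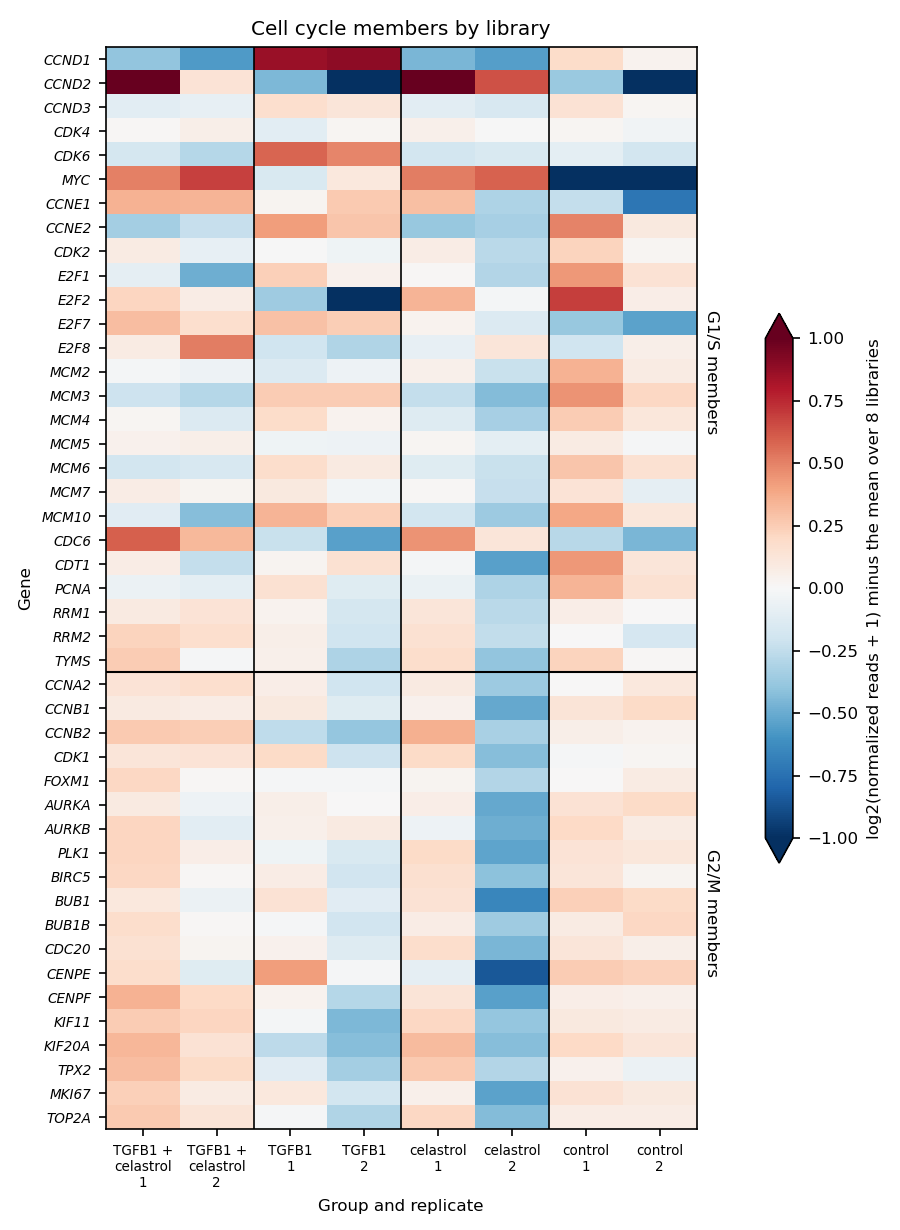
Level of each member in each of the 8 libraries, as log2(normalized reads + 1) minus the gene's mean over all libraries, with colours held at 1 in either direction. Columns are libraries in their groups, and G1/S members stand above the black line and G2/M members below it. CCND1, CDK6 and MYC change by group, and the G2/M members are low together in celastrol replicate 2.

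The D-type cyclins, their kinases and MYC held the largest differences among the members. CCND1 encodes cyclin D1, the activator of CDK4 and CDK6 (chromosome 11, 69641156 to 69654474 on hg38). It had 17353 and 15402 normalized reads with both agents, 41525 and 42268 with TGFB1, 16580.1 and 15556 with celastrol, against 25827 and 23316 in controls. TGFB1 libraries stood above and celastrol libraries below the controls without overlap, and the libraries with both agents lay with those of celastrol alone. CCND1 rose with TGFB1 against control (log2 fold change 0.77, SE 0.08, adjusted p = 0.00023). It fell with both agents against TGFB1 (-1.36, SE 0.08, adjusted p = 2.55e-06) and with celastrol against control (-0.61, SE 0.08, adjusted p = 0.000239). Per kilobase of exon, its mean level in controls, 5087 normalized reads, was the highest of the 45 members. In the GENCODE annotation its exons overlap those of LTO1 on the other strand, and whether counting used strand is not stated.

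CDK6, the kinase partner of cyclin D (chromosome 7, 92604921 to 92836573), had 11225 and 10396 normalized reads with both agents, 18962 and 17755 with TGFB1, 11165 and 11374 with celastrol, against 11797 and 11165 in controls. The TGFB1 libraries were high and the other 6 lay together. CDK6 rose with TGFB1 against control (0.68, SE 0.06, adjusted p = 0.000142) and fell with both agents against TGFB1 (-0.76, SE 0.06, adjusted p = 1.57e-05). For celastrol against control its log2 difference was -0.03 (SE 0.06, adjusted p = 0.753). CDK4, the other kinase of this step, was between 1871 and 2098 normalized reads in all 8 libraries and was not called in any comparison.

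MYC encodes a transcription factor that promotes growth and the G1 to S transition. It had 3871 and 4401 normalized reads with both agents, 2453 and 2935 with TGFB1, 3907 and 4121 with celastrol, against 1259 and 1251 in controls. All 3 treated groups stood above the controls, and both groups with celastrol stood above TGFB1 alone. MYC rose with TGFB1 against control (1.10, SE 0.09, adjusted p = 8.78e-05), with celastrol against control (1.68, SE 0.09, adjusted p = 2.85e-06) and with both agents against TGFB1 (0.62, SE 0.09, adjusted p = 0.000458). The calls of CCND1, CDK6 and MYC given above held in every alternative run. The comparisons with TGFB1 and with both agents share the TGFB1 libraries, so a high value in those libraries enters both.

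The other D cyclins were at lower levels. CCND2, cyclin D2, had 102 and 48.3 normalized reads with both agents, 31.8 and 18.4 with TGFB1, 121 and 68.9 with celastrol, against 33.8 and 16.2 in controls. The libraries with celastrol were all above those without it, although replicates differed widely. CCND2 rose with both agents against TGFB1 (1.50, SE 0.50, adjusted p = 0.0282) and with celastrol against control (1.92, SE 0.50, adjusted p = 0.0109). Per kilobase of exon it had the lowest mean level of the 45 members in controls, 3.49 normalized reads, and its exons overlap those of the antisense gene CCND2-AS1. The first call ended without replicate 1 of both agents (0.97), without TGFB1 replicate 2 (1.12), with median centring (1.21) or without the variance trend (adjusted p = 0.0679), and the second without celastrol replicate 1 (1.52) or control replicate 2 (1.41).

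CCND3, cyclin D3, had 709 and 719 normalized reads with both agents, 853 and 827 with TGFB1, 707 and 681 with celastrol, against 842 and 773 in controls. Celastrol libraries were below those without it, by a small margin. CCND3 fell with both agents against TGFB1 (-0.23, SE 0.07, adjusted p = 0.0208) and with celastrol against control (-0.22, SE 0.07, adjusted p = 0.0333). The first call ended without either library of both agents (-0.22 and -0.24), without TGFB1 replicate 1 (-0.21) or at a common total (-0.08). The second ended without either celastrol library (-0.24 and -0.19), without control replicate 1 (-0.15) or with the compared libraries alone (adjusted p = 0.0556). Without the variance trend both ended (adjusted p = 0.0516 and 0.0747).

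**Figure D3:**
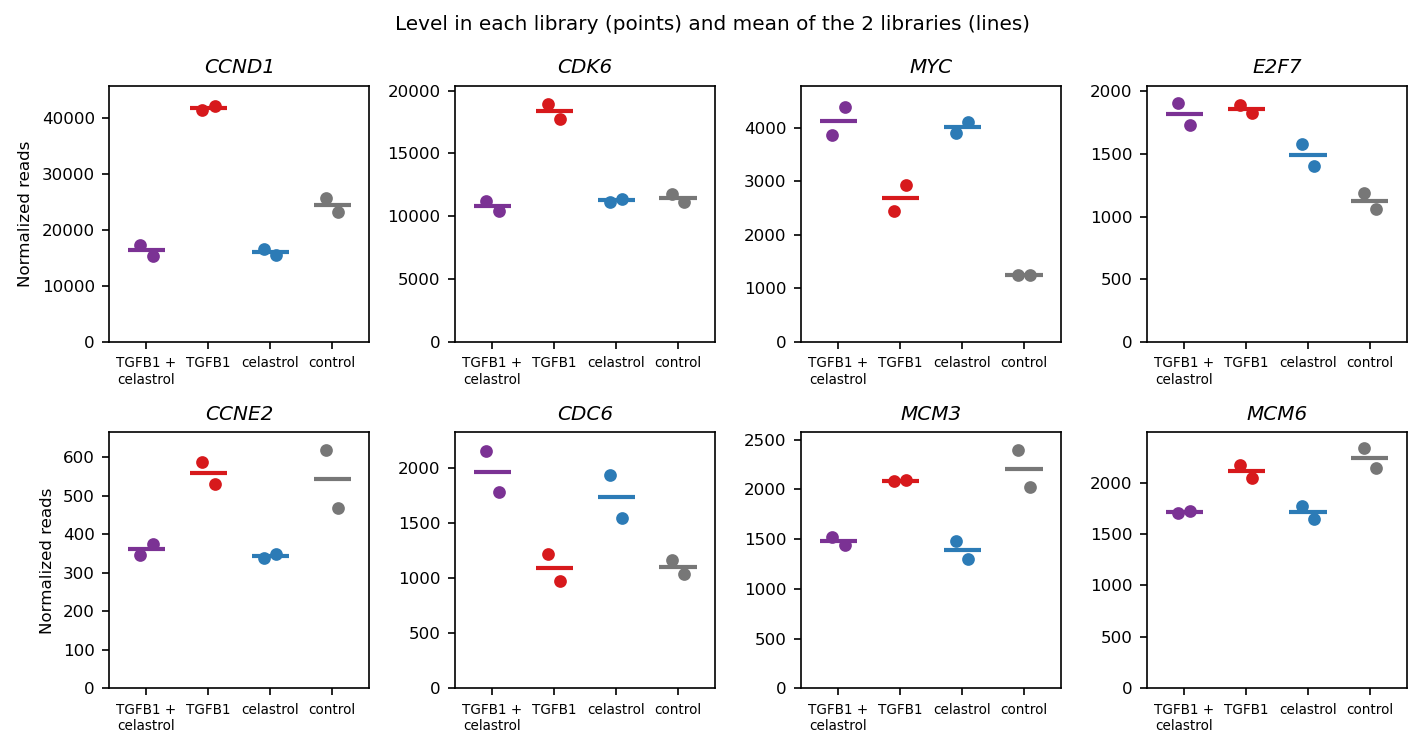
Normalized reads of 8 G1/S members in each library, on linear axes from 0, with a point per library and a line at the mean of the 2 libraries of a group. CCND1 and CDK6 are highest with TGFB1, MYC is lowest in controls, and CCNE2, MCM3 and MCM6 are lower, and CDC6 higher, in the libraries with celastrol.

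Cyclin E drives CDK2 at the start of S phase. CCNE2, cyclin E2, had 346 and 375 normalized reads with both agents, 588 and 532 with TGFB1, 338 and 349 with celastrol, against 619 and 469 in controls. Its 4 values with celastrol lay below its 4 values without. CCNE2 fell with both agents against TGFB1 (-0.63, SE 0.13, adjusted p = 0.00303) and with celastrol against control (-0.65, SE 0.13, adjusted p = 0.00323), in every alternative run, and its exons overlap those of INTS8. CCNE1, cyclin E1, ran from 84.6 normalized reads in a control to 178 with both agents and was not called, and CDK2 ran from 1065 to 1502 and was not called.

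The E2F factors comprise activators and repressors. E2F7, an atypical E2F that represses E2F targets (chromosome 12, 77021248 to 77065569), had 1903 and 1732 normalized reads with both agents, 1889.8 and 1825 with TGFB1, 1578 and 1402 with celastrol, against 1184 and 1059 in controls. The 3 treated groups were above the controls, and celastrol alone lay below the 2 groups with TGFB1. E2F7 rose with TGFB1 against control (0.73, SE 0.09, adjusted p = 0.000522) and with celastrol against control (0.41, SE 0.09, adjusted p = 0.00365), in every alternative run. With both agents against TGFB1 its log2 difference was -0.03 (SE 0.09, adjusted p = 0.758).

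E2F8, the other atypical repressor, had 220.1 and 296 normalized reads with both agents, 181 and 168 with TGFB1, 196 and 225 with celastrol, against 180.1 and 217 in controls. It was called higher with both agents against TGFB1 (0.55, SE 0.17, adjusted p = 0.0223), a call that ended without replicate 2 of both agents (0.33), without TGFB1 replicate 2 (0.50) or with median centring (0.26). E2F2, an activator of S-phase genes, had 196 and 177 normalized reads with both agents, 131 and 82.3 with TGFB1, 213 and 166 with celastrol, against 273 and 176 in controls. It was lowest in the TGFB1 libraries.

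E2F2 fell with TGFB1 against control (-1.07, SE 0.27, adjusted p = 0.0232) and rose with both agents against TGFB1 (0.83, SE 0.27, adjusted p = 0.025). Each call ended without any of 4 or 3 libraries: without TGFB1 replicate 2 the differences were -0.73 and 0.50, without replicate 1 of both agents -1.07 and 0.76, and without its replicate 2 -1.07 and 0.90, and without control replicate 1 the first was -0.75. The second call also ended with median centring (0.55), and without the variance trend both ended (adjusted p = 0.0774 and 0.0656). E2F1, the other activator, ran from 313 with both agents to 594 in a control. Its values with both agents did not overlap those with TGFB1, nor those with celastrol the controls, but it was not called in either comparison (-0.43 in each, SE 0.17, adjusted p = 0.0524 and 0.0568).

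Licensing loads the MCM2 to MCM7 helicase onto origins in G1 through CDC6 and CDT1, and MCM10 helps to activate it. The 9 genes of this step did not move as one with celastrol: CDC6 rose, and of the other 8, MCM3, MCM6 and MCM10 fell with both agents against TGFB1 and 6 fell with celastrol against control. The first is 33.3% of the 9, where 25.9% of all genes fell and 35.8% of those with a mean of at least 50. There 5 of the 9 were not called. The second is 66.7%, against 21.3% and 28.3%. Its calls of MCM2, MCM4, MCM10 and CDT1 ended without celastrol replicate 2. CDC6, the helicase loader (chromosome 17, 40287879 to 40304657), had 2156 and 1782 normalized reads with both agents, 1220.3 and 976 with TGFB1, 1938 and 1548 with celastrol, against 1169 and 1035 in controls. All 4 values with celastrol exceeded the 4 without. CDC6 rose with both agents against TGFB1 (0.84, SE 0.15, adjusted p = 0.00106), in every alternative run, and with celastrol against control (0.65, SE 0.15, adjusted p = 0.00525), a call that ended without celastrol replicate 1 (0.49).

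MCM3 (chromosome 6, 52264014 to 52284881) had 1518 and 1438 normalized reads with both agents, 2085 and 2092 with TGFB1, 1484 and 1301 with celastrol, against 2395 and 2021 in controls. MCM6 (chromosome 2, 135839626 to 135876443) had 1701 and 1723 with both agents, 2174 and 2049 with TGFB1, 1772 and 1649.5 with celastrol, against 2334 and 2146 in controls. For both subunits the 4 libraries with celastrol lay below the 4 without. MCM3 fell with both agents against TGFB1 (-0.50, SE 0.09, adjusted p = 0.00163) and with celastrol against control (-0.66, SE 0.09, adjusted p = 0.000413), in every alternative run. MCM6 fell in the same comparisons (-0.30, SE 0.07, adjusted p = 0.00434, and -0.39, SE 0.07, adjusted p = 0.00137), and only its first call ended, at a common total (-0.14).

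MCM10 had 479 and 385 normalized reads with both agents, 655 and 608 with TGFB1, 455 and 402 with celastrol, against 675 and 559.6 in controls. It too was lower in every library with celastrol than in any without. MCM10 fell with both agents against TGFB1 (-0.56, SE 0.13, adjusted p = 0.00632) and with celastrol against control (-0.52, SE 0.13, adjusted p = 0.0101). The first call ended without replicate 2 of both agents (-0.40), and the second without celastrol replicate 2 (-0.44) or control replicate 1 (-0.39).

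MCM4 had 2830.1 and 2539 normalized reads with both agents, 3174 and 2866 with TGFB1, 2556 and 2219.9 with celastrol, against 3338 and 3030.3 in controls. MCM2 had 1340.4 and 1309 with both agents, 1236 and 1308 with TGFB1, 1405 and 1166 with celastrol, against 1728 and 1438 in controls. CDT1, the partner of CDC6 in loading, had 359.6 and 289 with both agents, 347 and 379 with TGFB1, 336 and 234 with celastrol, against 460.2 and 371 in controls. In each of these 3 genes celastrol alone was below control, and celastrol replicate 2 was the lowest library. MCM4 fell with celastrol against control (-0.42, SE 0.09, adjusted p = 0.00518), as did MCM2 (-0.30, SE 0.11, adjusted p = 0.0448) and CDT1 (-0.56, SE 0.19, adjusted p = 0.0349).

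All 3 calls ended without celastrol replicate 2, where the differences were -0.32 for MCM4, -0.17 for MCM2 and -0.30 for CDT1. Those of MCM2 and CDT1 also ended without control replicate 1 (-0.17 and -0.40) and without either library of both agents (-0.30 and -0.56), and that of MCM2 without either TGFB1 library (-0.30). Without the variance trend the calls of MCM2 and CDT1 ended (adjusted p = 0.124 and 0.0898), as they did with the compared libraries alone (adjusted p = 0.0983 and 0.0682). MCM5 ran from 1930.5 to 2196 normalized reads and MCM7 from 2429 to 3143, and neither was called. The exons of MCM2 and MCM7 overlap those of TPRA1 and AP4M1.

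The promoters of CDC6, MCM3 and MCM6 are shown because these genes carry words of the E2F site and moved in opposite directions with celastrol. Each window runs from 250 bases before to 50 after the start in RefSeq on GRCh38.p14, and capitals mark the E2F words, which were TTTGGCGC, TTTCCCGC, TTTCGCGC and TTTGCCGC on either strand.
CDC6, chr17:40287629-40287928, plus strand: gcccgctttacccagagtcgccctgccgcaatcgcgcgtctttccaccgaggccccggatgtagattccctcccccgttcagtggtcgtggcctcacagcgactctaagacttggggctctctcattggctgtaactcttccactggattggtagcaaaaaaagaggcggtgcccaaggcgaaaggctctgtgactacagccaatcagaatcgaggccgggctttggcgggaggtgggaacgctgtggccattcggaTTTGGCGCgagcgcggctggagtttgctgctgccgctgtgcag
MCM3, chr6:52284693-52284992, minus strand: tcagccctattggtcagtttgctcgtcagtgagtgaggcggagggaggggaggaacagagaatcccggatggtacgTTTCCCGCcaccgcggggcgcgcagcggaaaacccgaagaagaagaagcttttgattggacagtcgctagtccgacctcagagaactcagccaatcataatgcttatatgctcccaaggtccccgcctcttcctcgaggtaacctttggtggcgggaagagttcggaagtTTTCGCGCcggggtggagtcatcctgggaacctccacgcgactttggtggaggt
MCM6, chr2:135876394-135876693, minus strand: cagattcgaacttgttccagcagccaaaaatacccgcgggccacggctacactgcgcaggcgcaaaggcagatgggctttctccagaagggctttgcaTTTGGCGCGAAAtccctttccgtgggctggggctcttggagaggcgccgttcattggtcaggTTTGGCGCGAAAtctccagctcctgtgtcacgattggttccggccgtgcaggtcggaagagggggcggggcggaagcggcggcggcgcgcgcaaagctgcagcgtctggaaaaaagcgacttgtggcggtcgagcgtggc
CDC6 held 1 word, MCM3 held 2 and MCM6 held 4, which overlap in 2 pairs where TTTGGCGC and the reverse complement of TTTCGCGC share bases.

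Of the 45 members 33 had at least 1 promoter in the RefSeq table, with 42 windows in all. An E2F word stood in 40.0% of the G1/S windows and 11.8% of the G2/M windows, against 3.32% of all 35093 windows. Words of the cell cycle homology region, TTTGAA and TTCGAA, stood in 8.0% of the G1/S and 64.7% of the G2/M windows, against 16.4% of all windows. CCAAT, the word of NF-Y, stood in 64.0% and 88.2%, against 34.6%. A heat shock element, here 3 alternating GAA and TTC units with 2 bases between them, stood in none of the 42 windows and in 0.49% of all. All words were searched on both strands. The word TTCGAA reads the same on both. A match describes the letters of the window and not binding.

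PCNA, the sliding clamp of the replication fork, had 2217 and 2157 normalized reads with both agents, 2568 and 2119 with TGFB1, 2198 and 1865 with celastrol, against 2918 and 2555 in controls. Controls were above both celastrol libraries, and the groups with and without celastrol overlapped in the presence of TGFB1. PCNA fell with celastrol against control (-0.43, SE 0.11, adjusted p = 0.0109), a call that ended without celastrol replicate 2 (-0.31), control replicate 1 (-0.34) or the variance trend (adjusted p = 0.0541). The genes of nucleotide supply were not called in any comparison: RRM1 and RRM2, the subunits of ribonucleotide reductase, ran from 2822 to 3746 and from 4269 to 5922 normalized reads, and TYMS, thymidylate synthase, from 1940.2 to 3033.

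Among the G2/M members 3 were called higher and none lower with both agents against TGFB1, and 2 lower and none higher with celastrol against control. That is 15.8% higher in the first, where 37.5% of all genes were, and 10.5% lower in the second, where 21.3% were. Of genes with a mean of at least 50, 27.4% were higher in the first and 28.3% lower in the second. None of the 19 was called in limma for TGFB1 against control, where 23.5% of all genes were. An unadjusted p under 0.05 was found for 1 of the 19, and for 8117 of all 22866 genes. In that comparison 11208 of all 22866 genes were below 0, with a median of 0.00. Among the 14739 with a mean of at least 50, 6811 were, with a median of 0.03. All 19 G2/M values were below 0 there, with a median of -0.17, though the 19 shift together within a library. There a common total gave 3 lower and median centring none, and 2 were lower without either celastrol library. With both agents against TGFB1 the median of the 19 was 0.19, and it turned to -0.10 with median centring. Rises there numbered 6 at a common total or with the compared libraries alone, and 0 with median centring or no variance trend. They numbered 7 without either celastrol library and 0 without TGFB1 replicate 2 or either library of both agents. For celastrol against control the median was -0.23, and 0.06 without celastrol replicate 2. Falls there numbered 8 with median centring, 4 at a common total, and 0 with no variance trend or with the compared libraries alone. They numbered 17 without celastrol replicate 1, 1 without either TGFB1 library, and 0 without celastrol replicate 2, either control or either library of both agents.

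Cyclins A2 and B activate CDK1 for entry into mitosis. CCNB2, cyclin B2 (chromosome 15, 59105126 to 59125045), had 1193 and 1182 normalized reads with both agents, 835 and 763 with TGFB1, 1275 and 797 with celastrol, against 1038 and 1018 in controls. The TGFB1 libraries were low and those with both agents high, while the celastrol libraries lay on either side of the controls. CCNB2 was called higher with both agents against TGFB1 (0.57, SE 0.18, adjusted p = 0.0207), and the call ended without either library of both agents (0.57 and 0.58), without TGFB1 replicate 2 (0.51), with median centring (0.28) or without the variance trend (adjusted p = 0.0722). CCNA2, CCNB1 and CDK1 were not called in any comparison and ran from 2029 to 2933, from 1491 to 2439 and from 1284 to 1966 normalized reads. In all 3 the lowest library was celastrol replicate 2. The CCNB2 promoter is shown as one with a word of the cell cycle homology region, in capitals, at position -29 from the start.
CCNB2, chr15:59104896-59105195, plus strand: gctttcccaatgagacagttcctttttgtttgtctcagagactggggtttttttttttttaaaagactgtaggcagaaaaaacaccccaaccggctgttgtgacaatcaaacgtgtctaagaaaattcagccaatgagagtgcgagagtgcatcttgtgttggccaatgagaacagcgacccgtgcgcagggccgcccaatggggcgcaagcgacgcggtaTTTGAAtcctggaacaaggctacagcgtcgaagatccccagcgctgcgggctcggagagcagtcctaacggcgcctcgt

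FOXM1, the transcription factor of the late wave, had 2621 and 2292 normalized reads with both agents, 2253 and 2259 with TGFB1, 2317 and 1855 with celastrol, against 2279.9 and 2403 in controls. It was not called in any comparison. Its smallest unadjusted p was for both agents against celastrol, where the log2 difference was 0.24 (SE 0.11, unadjusted p = 0.0506, adjusted p = 1.0), and 0.08 without celastrol replicate 2.

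Of the mitotic kinases, AURKB, the catalytic subunit of the chromosomal passenger complex, had 665 and 532 normalized reads with both agents, 595 and 609.6 with TGFB1, 553 and 408 with celastrol, against 659 and 605 in controls. It was called lower with celastrol against control (-0.41, SE 0.15, adjusted p = 0.0496). The call ended without any library other than celastrol replicate 1, with differences from -0.47 without control replicate 2 to -0.19 without celastrol replicate 2, and without the filter (-0.41). It also ended without the variance trend (adjusted p = 0.12) and with the compared libraries alone (adjusted p = 0.0747). AURKA, PLK1 and BIRC5, an Aurora kinase, a Polo kinase and survivin, ran from 1049 to 1710.1, from 989.6 to 1654 and from 1562 to 2391 normalized reads, and were not called.

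At the kinetochore, CENPE, a motor that aligns chromosomes, had 1738 and 1413 normalized reads with both agents, 2061 and 1524 with TGFB1, 1444 and 854 with celastrol, against 1836 and 1804 in controls. Celastrol replicate 2 was far below the other 7 libraries. CENPE was called lower with celastrol against control (-0.71, SE 0.23, adjusted p = 0.0284), and without that library the difference was -0.33 and was not called. The call also ended without either library of both agents (-0.71), control replicate 1 (-0.70), control replicate 2 (-0.72) or the variance trend (adjusted p = 0.0942), and with the compared libraries alone (adjusted p = 0.0513). CENPF, BUB1, BUB1B and CDC20, which serve the kinetochore and the spindle checkpoint, were not called in any comparison, and each was lowest in celastrol replicate 2.

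Of 3 spindle genes, 2 rose with both agents against TGFB1. KIF20A, a kinesin of cytokinesis, had 3081 and 2708 normalized reads with both agents, 2045 and 1821 with TGFB1, 3056 and 1819 with celastrol, against 2809 and 2660.2 in controls. TPX2, a spindle assembly factor, had 6279 and 5766 with both agents, 4686 and 3988 with TGFB1, 6077 and 4119 with celastrol, against 5206 and 4855 in controls. In both genes the 2 groups with TGFB1 did not overlap, and the celastrol libraries were wide apart. KIF20A was called higher with both agents against TGFB1 (0.58, SE 0.20, adjusted p = 0.031), as was TPX2 (0.48, SE 0.16, adjusted p = 0.0284).

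Median centring took both calls away, with 0.29 for KIF20A and 0.19 for TPX2. Without either library of both agents the calls also ended, at 0.49 and 0.67 for KIF20A and 0.42 and 0.54 for TPX2. Without TGFB1 replicate 2 they ended at 0.50 and 0.36, and without TGFB1 replicate 1 that of KIF20A ended at 0.67. Without the variance trend both ended (adjusted p = 0.0975 for KIF20A and 0.0941 for TPX2). The exons of KIF20A overlap those of BRD8 and CDC23. KIF11, the kinesin that pushes the spindle poles apart, ran from 2156 to 3509 and was not called.

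The proliferation antigen MKI67 had 9322 and 8361 normalized reads with both agents, 8536 and 6988 with TGFB1, 8192 and 5473 with celastrol, against 8751 and 8477 in controls. It was not called. Its smallest unadjusted p was for both agents against celastrol, at a log2 difference of 0.40 (SE 0.17, unadjusted p = 0.0453, adjusted p = 1.0), and it was 0.11 without celastrol replicate 2. TOP2A, the topoisomerase of mitotic chromosomes, ran from 5710.3 to 9214 normalized reads and was not called.

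**Figure D4:**
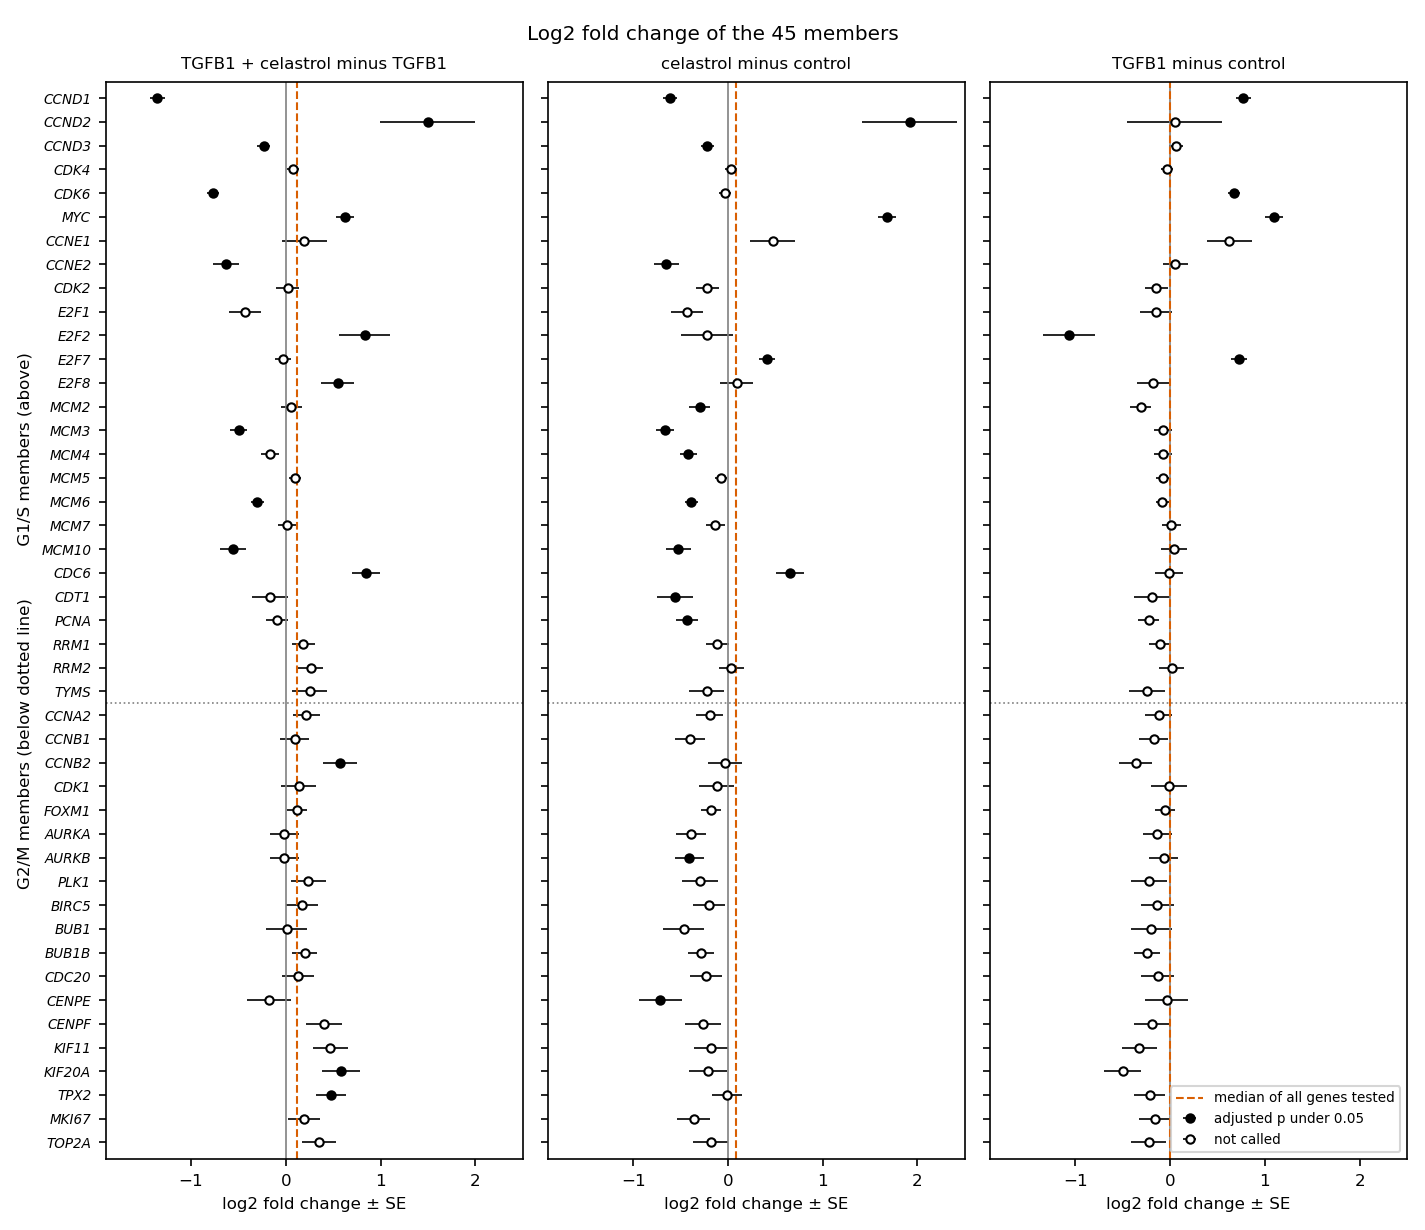
Log2 fold change with its SE for the 45 members in 3 comparisons, 2 libraries a group, with filled points for an adjusted p under 0.05 in limma, open points for the others and a dashed line at the median of all genes tested. With celastrol against control all 19 G2/M points lie below 0, and with both agents against TGFB1 16 lie above it. Of all 22866 genes 10253 were below 0 in the first comparison and 12633 above 0 in the second. Without celastrol replicate 2 the first set lay on both sides of 0, from CENPE at -0.33 to CCNB2 at 0.31. With median centring the G2/M median of the second turned from 0.19 to -0.10.

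Whether the celastrol difference depended on TGFB1 was tested as an interaction, that is, the log2 difference of both agents from TGFB1 minus that of celastrol from control. Of all genes, 11.3% were called, 4.36% higher and 6.89% lower. Among the members CCND1 (-0.75, SE 0.11, adjusted p = 0.00373), CDK6 (-0.74, SE 0.09, adjusted p = 0.00137) and MYC (-1.05, SE 0.13, adjusted p = 0.00166) were called lower in limma and none higher, with 8 members higher at an unadjusted p under 0.05. In either direction 12 of the 45 members were under that level, where 5896 of all 22866 genes were. The fall of CCND1 was larger in the presence of TGFB1, a fall of CDK6 was called in its presence, and the rise of MYC was smaller in its presence. These 3 calls held in every alternative run made for them, and a fit of the compared libraries alone was not made for the interaction. For the other 42 members the interaction was not called, so a call in 1 of the 2 celastrol comparisons and not in the other is not shown to differ between them. All 19 G2/M members had a positive interaction, with a median of 0.48, which was 0.19 without celastrol replicate 2 and 0.77 without celastrol replicate 1. Of all 22866 genes 11539 were positive, with a median of 0.01. Among the 14739 with a mean of at least 50, 6694 were, with a median of -0.04. The 19 shift together within a library, so their shared sign is not 19 separate results. A common total gave 5 higher and 3 lower members and median centring 0 higher and 4 lower, and without celastrol replicate 1 there were 13 higher.

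Both agents against celastrol alone asked what TGFB1 added in the presence of celastrol. No member was called, where 2 of 22866 genes (0.00875%) were called in limma, 1 in each direction (0.00437% higher and 0.00437% lower). At an unadjusted p under 0.05 there were 3 members, E2F7, CENPF and MKI67, and 868 genes. E2F7 differed by 0.29 (SE 0.09), CENPF by 0.48 (SE 0.19) and MKI67 by 0.40. Without celastrol replicate 2 these differences were 0.20, 0.15 and 0.11, and none had an unadjusted p under 0.05. The median of the 45 members was 0.23, where that of all genes was -0.00, and it was -0.01 without celastrol replicate 2. CCND1, CDK6 and MYC differed by 0.03, -0.06 and 0.04 in this comparison.

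Other genes of the cell cycle were set beside the members in 9 lists, with 187 of 188 genes in the table. Their counts stand against 37.5% of all genes higher and 25.9% lower with both agents against TGFB1, and 33.8% higher and 21.3% lower with celastrol against control. Of genes with a mean of at least 50, 27.4% were higher and 35.8% lower in the first, and 25.3% and 28.3% in the second. With TGFB1 against control 12.8% of all genes were higher and 10.6% lower, and 18.3% and 12.5% at that level. Of 8 CDK inhibitors, 7 (87.5%) rose with both agents against TGFB1 and 5 (62.5%) with celastrol against control, and none fell. With median centring 5 rose and 1 fell in the first and 3 rose in the second, and without celastrol replicate 1 the second had 4 rises and 1 fall. With TGFB1 against control 2 rose and 2 fell. There a common total gave 1 rise and 5 falls, the stricter filter and the loss of TGFB1 replicate 1 gave 4 falls each, and 1 rose without control replicate 2 or the variance trend. CDKN1B, which encodes p27, had 1389 and 1487 normalized reads with both agents, 606 and 608 with TGFB1, 1348 and 1320.1 with celastrol, against 1331 and 1302 in controls. Only the TGFB1 libraries were low. CDKN1B fell with TGFB1 against control (-1.12, SE 0.06, adjusted p = 1.01e-05) and rose with both agents against TGFB1 (1.24, SE 0.06, adjusted p = 1.4e-06), and its interaction was 1.22 (SE 0.09, adjusted p = 0.00013).

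CDKN2B, which encodes the TGFB1-inducible inhibitor p15, had 499.6 and 523 normalized reads with both agents, 283 and 254 with TGFB1, 437 and 551 with celastrol, against 153 and 175 in controls. It rose with TGFB1 against control (0.71, SE 0.14, adjusted p = 0.00665), with celastrol against control (1.58, SE 0.14, adjusted p = 2.7e-05) and with both agents against TGFB1 (0.93, SE 0.14, adjusted p = 0.000393). CDKN2C, the p18 gene, rose with both agents against TGFB1 (0.88, SE 0.07) and with celastrol against control (0.32, SE 0.07), and fell with TGFB1 against control (-0.49, SE 0.07). Its rise with celastrol against control was not called with median centring (0.15). CDKN1C, the p57 gene, rose with celastrol in both settings (2.48 and 1.59, SE 0.34). CDKN1A, the p21 gene, rose with TGFB1 against control (0.30, SE 0.07, adjusted p = 0.0108) and with celastrol against control (0.34, SE 0.07, adjusted p = 0.00214). The first of these calls ended at a common total (0.08), without control replicate 2 (0.25) or without the variance trend.

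Of 16 genes of growth arrest, 13 (81.2%) rose and 1 fell with both agents against TGFB1, and 12 (75.0%) rose and 1 fell with celastrol against control, a fall that was not called without celastrol replicate 2, either control or the variance trend. With TGFB1 against control 4 rose and 7 fell, or 4 fell without control replicate 1. With median centring 2 fell with both agents against TGFB1. The median log2 difference of the list was 1.45 with both agents and 0.77 with celastrol alone. GADD45A, a stress-induced growth arrest gene, had 2680.1 and 2899.8 normalized reads with both agents, 1006 and 1020.1 with TGFB1, 2461 and 2517 with celastrol, against 737 and 745 in controls. It rose in the 2 celastrol comparisons (1.46 and 1.75, SE 0.06). GADD45B had 6034 and 6996 with both agents, 3078 and 3704 with TGFB1, 4665 and 5321 with celastrol, against 749 and 723 in controls, and it rose with TGFB1 against control (2.20, SE 0.11, adjusted p = 4.93e-06).

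GAS1, a growth arrest gene of fibroblasts, had 592 and 535 normalized reads with both agents, 91.8 and 78.7 with TGFB1, 597 and 676 with celastrol, against 368 and 399 in controls. It fell with TGFB1 against control (-2.16, SE 0.12, adjusted p = 9.67e-06) and rose with both agents against TGFB1 (2.71, SE 0.12, adjusted p = 8.06e-07). PLK2, a stress-responsive Polo kinase, rose with both agents against TGFB1 (2.66, SE 0.09), as did BTG1, an antiproliferative gene (1.66, SE 0.07). PLK3 went the other way for TGFB1: it had 548 and 474 with both agents, 1482 and 1669 with TGFB1, 487 and 466 with celastrol, against 408 and 396 in controls. Its interaction was -1.87 (SE 0.14, adjusted p = 0.00013), and that of GAS1 was 1.99 (SE 0.17, adjusted p = 0.000278).

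The replication-dependent histone genes are transcribed in S phase. Of 24, 16 (66.7%) fell and none rose with both agents against TGFB1, and 20 (83.3%) fell and none rose with celastrol against control, with medians of -0.36 and -0.66. H4C2, a histone H4 gene, had 326 and 343 normalized reads with both agents, 901 and 815 with TGFB1, 339 and 374 with celastrol, against 928 and 1053 in controls. All 4 values with celastrol were less than those without it. H1-3, a linker histone gene, had 356 and 405 with both agents, 1113 and 948 with TGFB1, 376 and 269 with celastrol, against 1412 and 1288 in controls, and fell with celastrol against control (-2.08, SE 0.16, adjusted p = 1.35e-05). SLBP, whose protein binds histone mRNA, rose with celastrol against control (0.79, SE 0.12, adjusted p = 0.000653). Histone genes of 1 type are near-identical copies, so reads could be split among them. With both agents against TGFB1, 9 fell without TGFB1 replicate 1 or without replicate 1 of both agents, 9 fell without the variance trend and 8 fell at a common total.

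Of 43 further replication genes, 7 rose (16.3%) and 11 fell (25.6%) with both agents against TGFB1, and 1 rose and 25 (58.1%) fell with celastrol against control. POLA2, a subunit of DNA polymerase alpha, had 207 and 223 normalized reads with both agents, 379.9 and 324 with TGFB1, 196 and 185 with celastrol, against 435 and 443 in controls. It fell with celastrol against control (-1.20, SE 0.12, adjusted p = 4.73e-05) and with both agents against TGFB1 (-0.71, SE 0.12, adjusted p = 0.000731). POLD3, a subunit of polymerase delta, fell in the same comparisons (-1.07 and -0.75, SE 0.11). With celastrol against control the count of falls was 12 without celastrol replicate 2 or without control replicate 1. With both agents against TGFB1 the median of the list was -0.05, 13 rose and 6 fell at a common total, where the median turned to 0.11, and 1 rose and 25 fell with median centring. Leaving out TGFB1 replicate 2, or replicate 1 of both agents, left 3 rises. Over the 16 alternatives rises ran from 1 to 13 and falls from 6 to 25 in this comparison.

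Among 15 genes of the RB family, DREAM and MuvB, 4 rose and 4 fell (26.7% each) with both agents against TGFB1, and 3 rose and 7 fell (46.7%) with celastrol against control. LIN54, the DNA-binding subunit of MuvB, had 2797 and 2681 normalized reads with both agents, 846 and 773 with TGFB1, 2799.7 and 2545 with celastrol, against 1383 and 1379 in controls. The order was celastrol above control above TGFB1, and its interaction was 0.81 (SE 0.10, adjusted p = 0.00164). E2F4, the E2F of repressive complexes, rose with TGFB1 against control (0.47, SE 0.09), a call that ended at a common total (0.25), and fell with both agents against TGFB1 (-0.89, SE 0.09). With celastrol against control the falls in this list were 1 without celastrol replicate 2, 0 without control replicate 1, 3 without control replicate 2, 4 without either library of both agents and 1 without the variance trend. With both agents against TGFB1 there were 5 rises and 1 fall at a common total, 2 rises and 9 falls with median centring, 2 and 3 without TGFB1 replicate 1, without the variance trend or with the compared libraries alone, 2 and 2 without replicate 1 of both agents, and 3 and 2 without its replicate 2.

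Of 9 genes of the MYC network, 5 rose (55.6%) and 3 fell (33.3%) with both agents against TGFB1, and 3 rose (33.3%) and 2 fell (22.2%) with celastrol against control. MXD1, which competes with MYC for MAX, had 1594 and 1490.0 normalized reads with both agents, 531 and 517 with TGFB1, 1789 and 1682 with celastrol, against 315 and 292 in controls. It rose with celastrol against control (2.51, SE 0.08, adjusted p = 1.82e-07), with TGFB1 against control (0.79, SE 0.08, adjusted p = 0.000173) and with both agents against TGFB1 (1.55, SE 0.08, adjusted p = 1.19e-06). MAX itself rose with TGFB1 against control (0.45, SE 0.09), a call that ended at a common total (0.22), and fell with both agents against TGFB1 (-0.60, SE 0.09). With celastrol against control the list had 1 rise without celastrol replicate 2 or control replicate 2, and with both agents against TGFB1 it had 3 rises without replicate 2 of both agents or with median centring. Falls with celastrol against control numbered 5 with median centring and 1 without the variance trend.

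Mitotic genes beyond the members form further lists. Of 43 genes of spindle, kinetochore and cytokinesis, 10 rose (23.3%) and 2 fell (4.65%) with both agents against TGFB1, and 1 rose (2.33%) and 6 fell (14.0%) with celastrol against control. HJURP, the chaperone of centromeric histone, had 849.7 and 959 normalized reads with both agents, 1335 and 1325 with TGFB1, 783 and 562 with celastrol, against 1408 and 1401 in controls, and fell with celastrol against control (-1.08, SE 0.14, adjusted p = 0.000221), by 0.84 without celastrol replicate 2 (adjusted p = 0.000686). The list's rises with both agents numbered 20 at a common total and 2 with median centring, where its median turned from 0.25 to -0.04, 19 without either celastrol library, 16 with the compared libraries alone, and 5 without the variance trend, TGFB1 replicate 2 or either library of both agents. With celastrol against control 17 fell with median centring, 25 fell without celastrol replicate 1, 3 rose and 4 fell without celastrol replicate 2, 3 fell without control replicate 1 and 4 without control replicate 2. Of 13 G2/M kinases and CDC25 genes, 3 rose (23.1%) and 2 fell (15.4%) with both agents against TGFB1, and 7 rose without either celastrol library, 6 with the compared libraries alone, 5 without TGFB1 replicate 1 and 9 at a common total. CDC25B, a phosphatase that activates CDK1, had 2444 and 2602 with both agents, 1058 and 1182 with TGFB1, 2339 and 2155 with celastrol, against 1875 and 2135 in controls, with an interaction of 1.01 (SE 0.12, adjusted p = 0.00145).

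Of 16 genes of the ubiquitin ligases APC/C and SCF, 2 (12.5%) rose and 9 (56.2%) fell in each celastrol comparison. FBXW7, the SCF receptor that targets cyclin E and MYC, had 2016 and 1945 normalized reads with both agents, 1048 and 1045 with TGFB1, 1949 and 2042 with celastrol, against 922 and 854 in controls. It rose with both agents against TGFB1 (0.92, SE 0.06, adjusted p = 6.61e-06) and with celastrol against control (1.17, SE 0.06, adjusted p = 2.73e-06). FBXO5, an inhibitor of APC/C, fell with celastrol against control (-1.30, SE 0.18, adjusted p = 0.000398), by 1.03 without celastrol replicate 2 (adjusted p = 0.00369). SKP2, the SCF receptor that targets p27, had 2934 and 2654 with both agents, 3041 and 2571 with TGFB1, 3159 and 3063 with celastrol, against 5085 and 4565 in controls, and fell with TGFB1 against control (-0.78, SE 0.09, adjusted p = 0.000531). With median centring 1 gene of this list rose and 14 fell with both agents against TGFB1, and 6 fell without replicate 2 of both agents. In the other comparison 1 to 2 rose and 8 to 12 fell over the 16 alternatives.

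**Figure D5:**
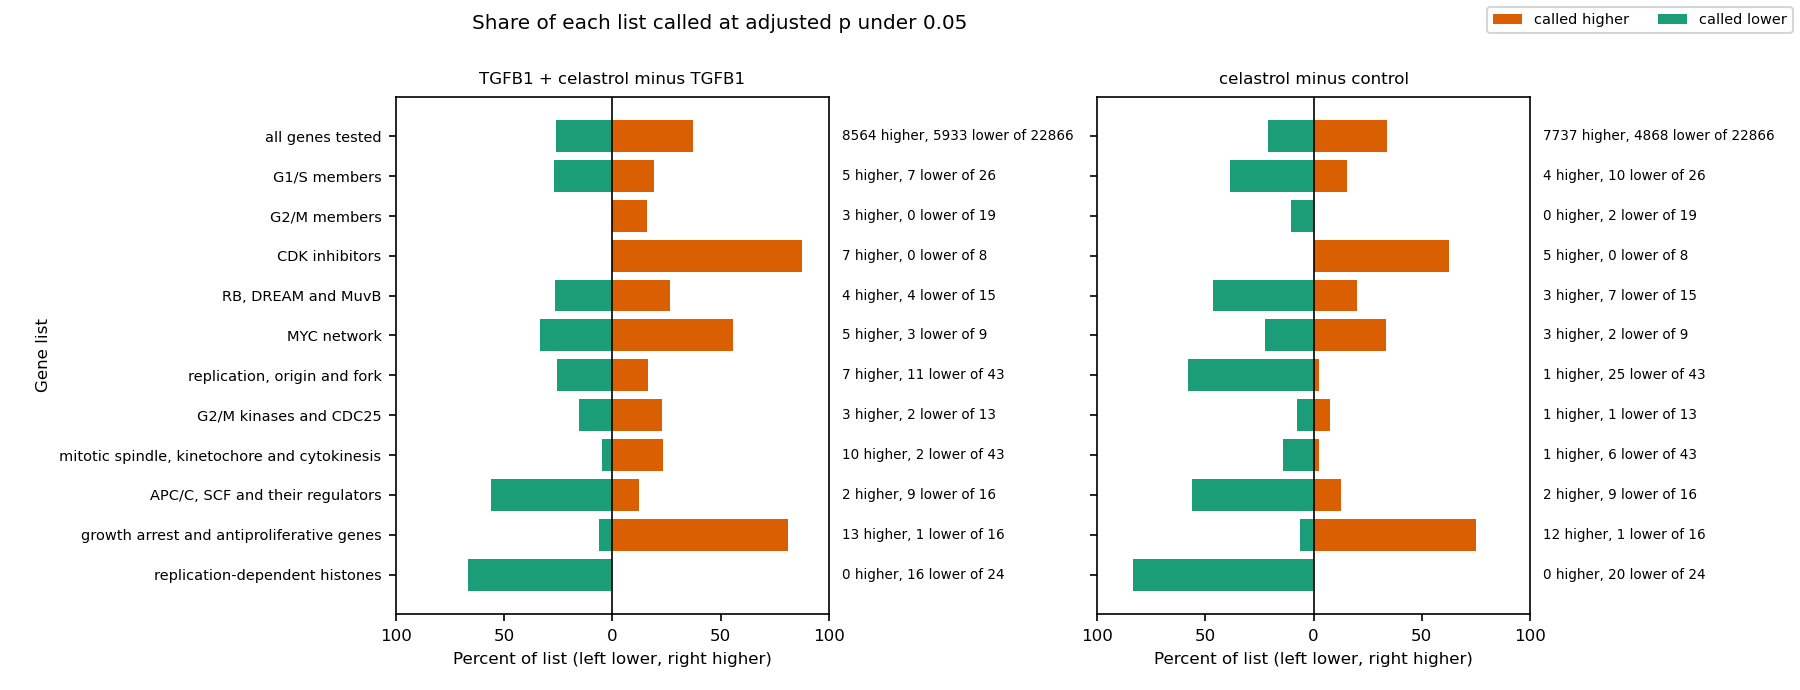
Share of each gene list called higher (right) or lower (left) at an adjusted p under 0.05 in limma, in percent of the genes tested, for both agents against TGFB1 and for celastrol against control, with all genes tested on top. Of the CDK inhibitors 7 of 8 were higher with both agents, and of the replication-dependent histones 20 of 24 were lower with celastrol.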

How the data were processed

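Total RNA was extracted with TRIzol and sequenced from libraries made with a VAHTS total RNA kit, per the labels' protocols. The authors deposited 1 normalized signal value per gene and library, and the submitters' processing notes name Partek 10.0.22, STAR 2.7.3a, DESeq2 and build hg38. Which step each tool served, the annotation, the counting rule and its use of strand are not stated there. Per library, 74.5% to 75.8% of values fell within 0.02 reads of a multiple of 1 step. The deposited signal was therefore taken to be estimated reads over 1 size factor. Too few values were whole for a count model. The table is scaled neither to length nor to a common total. Over the 20682 genes above 0 in all libraries, the median ratio to the gene's geometric mean was 1.0077 in each of the 8 libraries. The libraries were thus already level by that ratio. Genes above 0 numbered 24473 to 24539 in libraries with celastrol and 21905 to 22720 without, and median centring runs over all genes tested, low ones included.

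Values were tested as log2(value + 1), which understates the change of low genes, in limma 3.58.1 under R 4.3.3, with a variance trend and two-sided tests. A gene entered with 10 or more normalized reads in 2 or more libraries, which left 22866. All 8 libraries were fitted together with 1 mean per group and 4 residual degrees of freedom, and Benjamini-Hochberg adjustment ran over all genes of each of the 5 comparisons. A call is an adjusted p under 0.05. The procedure was checked on simulated data. Alternatives were a pseudocount of 5, no filter, a filter on a mean of at least 50, scaling to a common total, centring on the median, no variance trend, the replicate number as a block, a fit of the compared libraries alone and leaving out each library.

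The members, the 9 lists of other genes and the markers were chosen with earlier results of these data known. Members are given library by library where called in any comparison. Of each role without a call, the member with the smallest unadjusted p is given in full, and the others by their range. Up to 4 called genes of each other list with the smallest p per comparison could be named, and not all are. Coordinates are those of the table, with the end taken as the deposited stop minus 1. Of the 45 members 12 have the same coordinates in GENCODE 29, which gave the exon lengths and overlaps, and of the 22 called members 8 overlap an exon of another gene there. Promoters are from RefSeq on GRCh38.p14.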

Additional observations from a re-analysis of the deposited data

Results flagged for a closer look

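The difference that celastrol made depended on TGFB1, by the test of the interaction, for 3 members. CCND1 had an interaction of -0.75 on the log2 scale, with a difference of -1.36 for both agents against TGFB1 and -0.61 for celastrol against control. CDK6 had an interaction of -0.74, with differences of -0.76 and -0.03 in the same comparisons. MYC had an interaction of -1.05, with differences of 0.62 and 1.68. In both libraries with TGFB1 alone, CCND1 and CDK6 were higher than in any other library. Groups of 2 libraries are too small for a test of single outlying libraries.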

How the results depend on the processing

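Of 39 member calls, 19 held in every alternative run: CCND1, MYC, CCNE2 and MCM3 in each celastrol comparison, CDK6 and CDC6 with both agents against TGFB1, E2F7 and MCM6 with celastrol against control, CCND1, CDK6, MYC and E2F7 with TGFB1 against control, and the 3 interactions. No call reversed. A pseudocount of 5, the stricter filter and the replicate block ended none, a common total 2, median centring 6, no filter 1, no variance trend 13, and the compared libraries alone 5. Leaving out each library in turn gave 254 repeats that kept the call and 58 that did not. Members higher with both agents against TGFB1 numbered 8, against 15 at a common total, 2 with median centring, 3 with no variance trend, and 2 (without TGFB1 replicate 2) to 12 (without either celastrol library) with 1 library left out. Members lower there numbered 7, against 14 with median centring, and 5 to 7 with 1 library left out. With celastrol against control 4 were higher, and 2 to 6 with 1 library left out. There 12 were lower, against 23 with median centring, 6 with no variance trend, 7 with the compared libraries alone, and 4 (without celastrol replicate 2) to 28 (without celastrol replicate 1), with 5 without control replicate 1. With TGFB1 against control 1 was lower, against 11 at a common total, 2 with the stricter filter, 0 with no variance trend, 4 with the compared libraries alone, and 0 to 3 with 1 library left out. In the interaction 0 were higher, against 5 at a common total, and 0 to 13 with 1 library left out. The cause of these changes was not tested, and counts of all genes called in these runs are not given here.

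Over all 22866 genes, replicate numbers were not shown to pair the libraries: deviations of libraries with the same number correlated between 0.05 and 0.082. The members, however, were mostly lower in replicate 2 than in replicate 1. This held for 18, 19, 22 and 25 of the 26 G1/S members with both agents, TGFB1, celastrol and control. For the 19 G2/M members these counts were 17, 17, 19 and 12. The source of this shift was not tested. With the replicate block 13 members were higher and 9 lower with both agents against TGFB1, 4 higher and 19 lower with celastrol against control, 4 higher and 5 lower with TGFB1 against control, and 9 higher and 4 lower in the interaction. Counts of all genes in that run are not given, so a change particular to the members is not shown. With 2 libraries a group and 4 residual degrees of freedom, members that were not called are not shown to be alike between groups. A lone library left in a group was assumed to vary like the others.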
